A study of Homo sapiens with 6 samples.

Results

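The genes described here are 10 members of the ATF4 pathway and the unfolded protein response: ATF4, ATF3, DDIT3, ASNS, TRIB3, CHAC1, XBP1, ATF6, HSPA5 and HSP90B1. They were taken by name, as every row of the deposited m6A peak tables whose gene name is one of the 10, out of 16810 genes with a peak in either table. All 10 had peaks under both treatments, 27 of the 42813 peaks in the DMSO list and 25 of the 41838 in the FB23-2 list. The cells were MHCC97H, a human hepatocellular carcinoma line kept for 48 h either in DMSO vehicle (3 samples) or in 2 µM FB23-2 (3 samples), a small molecule that inhibits the m6A demethylase FTO. In MeRIP-seq, an antibody against N6-methyladenosine (m6A) pulls down fragments of poly(A) RNA, and a peak is a stretch enriched in the pulled-down RNA. Each treatment has a single list with no values per sample, so a peak has no replicate check, the spread between samples cannot be set beside any difference described here, and depth is unknown.

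The unfolded protein response answers misfolded protein in the endoplasmic reticulum through 3 sensors, PERK, IRE1 and ATF6. PERK phosphorylates the initiation factor eIF2, which slows translation of most mRNAs but favours that of ATF4, because the 5′ leader of ATF4 mRNA carries short upstream reading frames that otherwise keep ribosomes from the main coding sequence. IRE1 splices XBP1 mRNA into the form that encodes the active factor, and ATF6 is cut from the membrane to enter the nucleus. In other work m6A in the ATF4 leader has been reported to affect the choice among these reading frames and to be sensitive to FTO. The question for ATF4 was therefore where its peaks lie, and in particular whether any lies in the leader.

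ATF4 had a peak across its RefSeq start and another at its 3′ end in both lists. Those across the start can be set beside sequence, because the RefSeq promoter table (GRCh38.p14) gives 250 bases before and 50 after each RefSeq start. Its windows were searched on the sense strand only for DRACH, the sequence context in which m6A is usually found (D is A, G or T, R is A or G, H is A, C or T). The stretches below carry each match in the ATF4 window, with the match in capitals, 5′ to 3′ on the plus strand of chromosome 22.

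ATF4, chr22:39520310-39520338: gaaggaaagaacGGACTctgatcatagaa

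ATF4, chr22:39520370-39520398: gtgaggccataaGAACAaactccttttct

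ATF4, chr22:39520374-39520402: ggccataagaacAAACTccttttctcgtc

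The first match, GGACT, had its A at -235 from the RefSeq start of ATF4, position 39520559, inside the FB23-2-only peak described next. The other 2 matches, which share 1 base, had theirs at -175 and -171, in the gap between that peak and the DMSO peak, and within no peak of either list. The 212 bases of the window that the DMSO 5′ peak covers held no match. Nor did the 137 bases of it that the FB23-2 peak across the start covers. Over all 34943 windows, 7.81% had no DRACH in the same 212 bases, 97.2% had 1 or more in their 300 bases, and 5.62% had GGACT in their first 63 bases, the stretch of the ATF4 window inside the FB23-2-only peak. A match is a description of letters and not a methylated site, and 37 bases of that peak lie outside the window and were not searched. Both peaks across the start run past the window's end at 39520608, and those downstream parts were not searched either.

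Under DMSO, ATF4 had 2 peaks, and both were shared with the FB23-2 list. Shared here means overlapping, on the same strand, with a peak from the other treatment across 50% or more of whichever is shorter; every other peak is list-only. The 5′ peak at chr22:39520397-39520646 was annotated to the 5′ UTR and had a log2 fold of 1.25 (adjusted p 6.22e-24 as deposited). The 3′ peak at chr22:39522423-39522683 ended at the gene's annotated end, was annotated to the 3′ UTR, and had a log2 fold of 1.57 with a deposited p of 0. These folds and p-values are the authors' own per peak, read as immunoprecipitate over input within 1 list. Against the peaks of their own annotation class in the DMSO list, the 5′ peak stood at percentile 30.8 by fold and the 3′ peak at 60.8.

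Under FB23-2, ATF4 had 4 peaks, of which 2 were shared and 2 were FB23-2-only. The shared 5′ peak, at chr22:39520472-39520721, had a log2 fold of 1.32 and overlapped its DMSO counterpart over 175 of 250 bases. The shared 3′ peak, at chr22:39522398-39522683, had a log2 fold of 1.62. The first FB23-2-only peak spanned 100 bases at chr22:39520272-39520371, had a log2 fold of 2.27 (adjusted p 1.50e-05 as deposited), and was annotated to the 5′ UTR of another transcript than the other ATF4 peaks. The second spanned 225 bases of coding exon at chr22:39522123-39522347, with a log2 fold of 0.97 and a deposited adjusted p of 9.45e-180. It was thus the weaker by fold and the stronger by p.

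**Figure D1:**
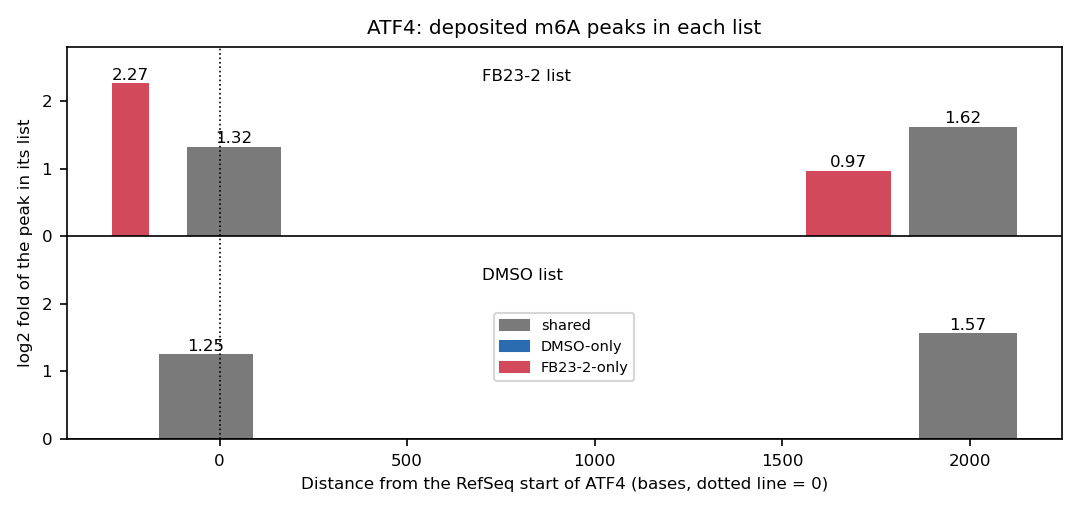
Deposited m6A peaks of ATF4, plotted by distance from the RefSeq start in bases (x) against the peak's log2 fold in its own list (y), with the FB23-2 list above and the DMSO list below. Grey bars are shared peaks and red bars the 2 FB23-2-only peaks (log2 folds 2.27 and 0.97). The first of them lies wholly before the RefSeq start, and each stands close to a shared peak.

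The 5′ peaks of ATF4 shared by the 2 lists straddled the RefSeq start, with part of each before it and part after it. Counted from that start, the DMSO peak ran from -162 to 87 and the shared FB23-2 peak from -87 to 162. Both thus cover the first bases of the RefSeq leader, and most of the shared FB23-2 peak lies after the start. The FB23-2-only peak ran from -287 to -188 and lay wholly upstream, in sequence that belongs to ATF4 only in transcripts that begin earlier, as the deposited gene start at 39519672 does. Coding starts and upstream reading frames are not in the tables used here, so no peak was placed on a particular reading frame. RefSeq lists 4 named ATF4 pseudogenes, none with a peak in either list, and how reads that match a gene and a pseudogene were counted is not given in the sources used here.

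Both FB23-2-only peaks of ATF4 lay next to shared ones. The 5′ one ended 25 bases before the DMSO 5′ peak and 100 bases before the shared FB23-2 peak, and the coding one ended 75 bases before the DMSO 3′ peak and 50 bases before the shared FB23-2 one. Of peaks under 300 bases, 89.0% in the DMSO list and 88.6% in the FB23-2 list had a span that is a multiple of 25, so that 25 bases is the step in which borders move. When peaks of a gene lying at most 100 bases apart in a list were joined first, ATF4 had 2 peaks in each list, all shared, and 0 FB23-2-only peaks. With a limit of 50 bases it had 1. FB23-2-only peaks in the 5′ UTR were found in 5.84% of the 15351 genes with peaks in both lists, and ATF4 was the only 1 of the 10 genes with one. A set of 2 or more FB23-2-only and 0 DMSO-only peaks, as in ATF4, was found in 3.44% of those genes. In the other direction, ATF3 and ASNS each had a DMSO-only peak in the 5′ UTR. How common that is over all genes was not counted.

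The other transcription factors of the group were marked mainly at their 3′ ends. DDIT3, the C/EBP-family factor CHOP that promotes cell death in prolonged stress, had 1 peak in each list, both ending at the gene's 3′ end. It spanned chr12:57516588-57517725 under DMSO with a log2 fold of 2.59 and chr12:57516588-57520439 under FB23-2 with 2.63. The FB23-2 peak thus ran 3852 bases, to within 78 bases of the RefSeq start, against 1138 under DMSO, and spans include introns. In each list 1 MARS1 peak overlaps the DDIT3 span.

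ATF3, a stress-induced factor of the ATF/CREB family, had 4 DMSO peaks and 1 FB23-2 peak. The FB23-2 peak at chr1:212618388-212620777 had a log2 fold of 1.54 and covered 3 of the DMSO peaks whole, which had log2 folds of 0.93, 1.16 and 1.86. The lower count under FB23-2 thus comes mostly from 1 long stretch called in place of 3 pieces. The remaining DMSO peak, at chr1:212614008-212615122 (log2 fold 1.10, adjusted p 5.23e-04 as deposited), was DMSO-only, was annotated to the 5′ UTR, and had no FB23-2 peak within 3265 bases. It covered the whole RefSeq window at an internal start of ATF3, where 8 DRACH matches lay, all before that start, at -241 to -28. Of these, 2 were GGACT, at -109 and -57, shown with the match in capitals.

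ATF3, chr1:212614895-212614923: caagggcttatgGGACTtttctctgaggg

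ATF3, chr1:212614947-212614975: ggtgggggagggGGACTtgatcccatgcc

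GGACT occurred in 25.2% of all windows. With the 33470 most significant peaks of each list, ATF3 had 0 DMSO-only peaks, so its 5′ peak is among the weaker calls of that list.

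XBP1, the factor made from the mRNA that IRE1 splices, had 2 DMSO and 3 FB23-2 peaks, all shared. The coding-exon peak at chr22:28795730-28796368 had identical borders in the 2 lists, and its log2 fold was 1.23 in the DMSO list and 1.15 in the FB23-2 list. The 3′ UTR was covered by 1 peak under DMSO, of 900 bases and a log2 fold of 1.18. Under FB23-2 it was covered by 2 peaks 100 bases apart, of 275 and 450 bases with log2 folds of 0.97 and 0.94. These are low for 3′ UTR peaks, at percentiles 39.6 (DMSO) and 20.9 and 18.7 (FB23-2) of that class in their own lists.

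ATF6, the membrane-bound sensor, held the peak with the highest fold of the 10 genes. It lay in an intron at chr1:161891758-161892132 under DMSO, with a log2 fold of 4.88, and at chr1:161891683-161892182 under FB23-2, with 6.25. Its deposited adjusted p, 3.94e-15 and 1.53e-13, was weaker than that of the ATF6 3′ UTR peak with a log2 fold of only 1.77 and 1.81. The intron peak stood at percentile 99.1 of all DMSO peaks by fold and at 99.8 of all FB23-2 peaks. ATF6 had 4 DMSO peaks, all shared, and 5 FB23-2 peaks. The FB23-2-only one, in the 3′ UTR at chr1:161961607-161961981 (log2 fold 0.80), lay 1800 bases from the nearest other peak of ATF6 in either list. A DMSO peak of ATF6 spanned 46915 bases, introns included, where its FB23-2 counterpart spanned 800 bases with the same end.

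Among the ATF4 targets, CHAC1, which degrades glutathione and is strongly induced by ATF4, had a single shared peak over most of the gene. It ran from chr15:40953712-40956511 under DMSO (log2 fold 3.84) and from chr15:40953812-40956511 under FB23-2 (4.22), at percentiles 96.4 and 98.0 of 3′ UTR peaks in their own lists. TRIB3, a pseudokinase that restrains ATF4 signalling, had its strongest peak in the 3′ UTR, with a log2 fold of 2.23 at chr20:396405-397554 under DMSO and 2.26 at chr20:396255-397554 under FB23-2. The 2 DMSO peaks there, 25 bases apart, were covered by 1 FB23-2 peak. TRIB3 also had a shared 5′ UTR peak that ended at 381165 in both lists and began at 362885 under DMSO and 375516 under FB23-2. The log2 folds of this peak were 1.36 (DMSO) and 1.52 (FB23-2). It spanned 18281 bases under DMSO and 5650 under FB23-2, and the RefSeq windows reach only the last 121 of them. No DRACH match lay in those 121 bases, and the rest of the peak was not searched. The match nearest to its end, a GGACT, had its A 30 bases past it.

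TRIB3, chr20:381181-381209: ggtgcggcctgcGGACTcgcccggaggcc

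ASNS, asparagine synthetase, had a 3′ UTR peak with identical borders in both lists, chr7:97851952-97852326, and log2 folds of 1.35 (DMSO) and 1.30 (FB23-2). Its shared 5′ UTR peak spanned 300 bases under DMSO and 125 bases inside them under FB23-2 (log2 folds 1.36 and 1.25). The DMSO-only peaks of ASNS were weak. The DMSO-only ones were an intron peak of 100 bases with a log2 fold of 0.50, at percentile 0.51 of all DMSO peaks, and a 5′ UTR peak with 0.68, at percentile 4.14. The FB23-2-only peak of ASNS was an intron peak of 100 bases with a log2 fold of 1.46, 850 bases from the DMSO intron peak. With the 33470 most significant peaks of each list, ASNS had 0 list-only peaks in either. RefSeq lists 5 named ASNS pseudogenes, and each list held 1 peak assigned to them.

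The chaperones held most peaks whose p was deposited as 0. The 10 genes had 6 such peaks in each list, 3 in HSP90B1 and 1 each in HSPA5, ATF4 and TRIB3. HSPA5, the major Hsp70 of the endoplasmic reticulum (BiP), had 2 peaks in each list, both shared and both annotated to the 3′ UTR. The larger, at chr9:125235653-125237052 under DMSO and chr9:125235703-125237002 under FB23-2, had log2 folds of 2.29 and 2.21, each with a deposited p of 0. The other lay at the gene's end, with 1.36 and 1.40. HSPA5 borders differed by at most 50 bases between the lists.

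HSP90B1, the Hsp90 of the endoplasmic reticulum (GRP94), had its highest fold at the 5′ end. That peak, 1 of 3 in HSP90B1 that tie at a deposited p of 0 in each list, ran from chr12:103930332-103931812 under DMSO (log2 fold 1.78) and from chr12:103930382-103931887 under FB23-2 (1.70), from 78 and 28 bases before the RefSeq start. In both lists it covered the following DRACH matches, which lie 9 and 38 bases after that start.

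HSP90B1, chr12:103930405-103930433: ggtgtagtgggcGGACCgcgcggctggag

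HSP90B1, chr12:103930434-103930459: gtgtgaggatccGAACCcaggggtgg

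A second HSP90B1 peak, from 103931988, had log2 folds of 1.30 and 1.16 and carries the 3′ UTR label of a short transcript although it begins 1578 bases after the RefSeq start. The DMSO-only peak of HSP90B1 lay in coding exons at chr12:103938321-103941546, with a log2 fold of 0.70, percentile 4.72 of all DMSO peaks, and a deposited adjusted p of 1.92e-217. The last HSP90B1 peak (1.42 and 1.59) ended at the deposited gene end, 5719 bases past the RefSeq end. C12orf73 peaks overlap the HSP90B1 span, 3 in the DMSO list and 4 in the FB23-2 list.

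**Figure D2:**
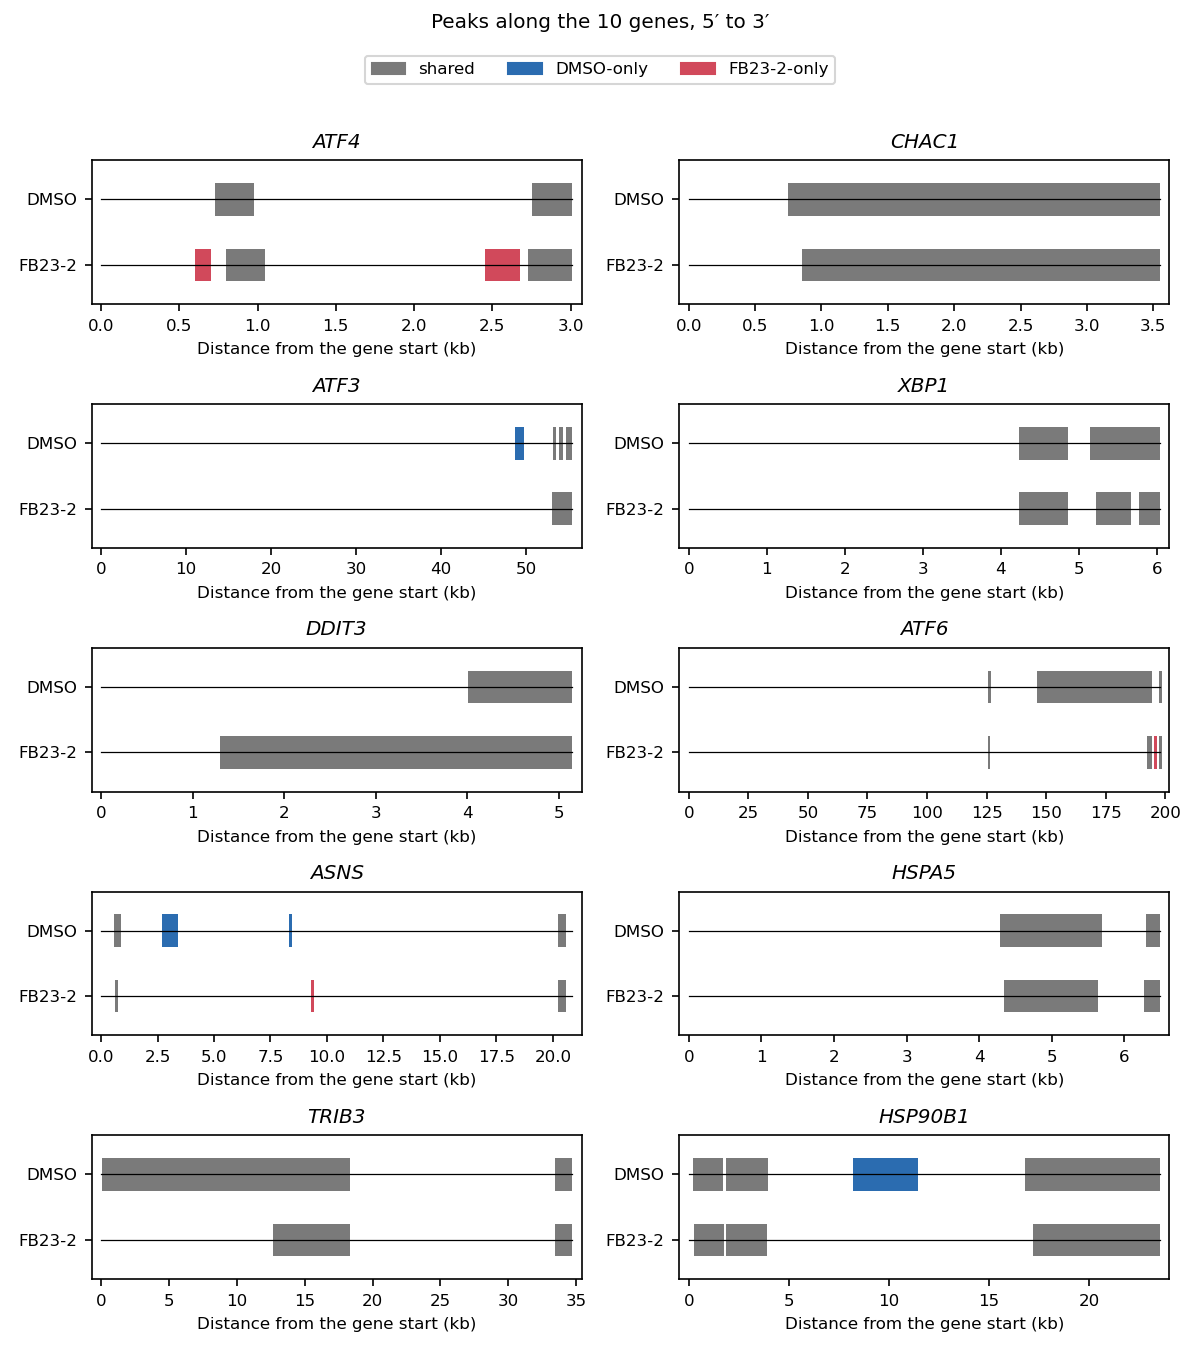
Peaks along each of the 10 genes, by distance from the deposited gene start in kb (x, 5′ to 3′, introns included), with the DMSO list in the upper row and the FB23-2 list in the lower. Grey is shared, blue DMSO-only and red FB23-2-only; very short peaks are drawn slightly wide to be visible. Peaks gather at the 3′ end in most of the genes, and several shared peaks are cut differently in the lists, as in ATF3, XBP1 and TRIB3.

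Over the 10 genes, 4 of 27 DMSO peaks (14.8%) were DMSO-only, against 20.1% of all DMSO peaks, and 4 of 25 FB23-2 peaks (16.0%) were FB23-2-only, against 17.3% of all FB23-2 peaks. The DMSO-only peaks belonged to ASNS (2), ATF3 and HSP90B1, and the FB23-2-only peaks to ATF4 (2), ASNS and ATF6. In each list 3 of 10 genes had a list-only peak, against 32.7% of genes for DMSO-only and 29.6% for FB23-2-only peaks. With sharing defined as above, the shares for the 10 genes thus lay near the background. With neighbours within 100 bases joined, the counts were 4 of 26 and 2 of 20, against 18.3% and 16.0% of all joined peaks.

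In the 3′ UTR lay 15 of the 27 DMSO and 16 of the 25 FB23-2 peaks, beside 57.3% of all peaks in both lists. In the 5′ UTR lay 6 and 5, beside 11.7% and 12.2% of all peaks. The most significant peak of a gene carried the 3′ UTR label in 9 of 10 genes in both lists. In HSP90B1, 3 peaks tied for it in each list, 1 labelled 5′ UTR and 2 labelled 3′ UTR. The median log2 fold of the 10 genes' peaks was 1.36 in the DMSO list and 1.46 in the FB23-2 list, against 1.39 and 1.42 over all peaks. List-only peaks had medians of 0.69 (DMSO) and 1.22 (FB23-2), against 1.36 and 1.52 for shared ones. A fold of 4 (log2 fold 2) was reached by 5 DMSO peaks (18.5%) and 6 FB23-2 peaks (24.0%). These shares lie below those over all peaks, 29.2% in the DMSO list and 30.4% in the FB23-2 list. The peaks were in DDIT3, TRIB3, CHAC1, ATF6 and HSPA5 under DMSO and also in ATF4 under FB23-2.

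**Figure D3:**
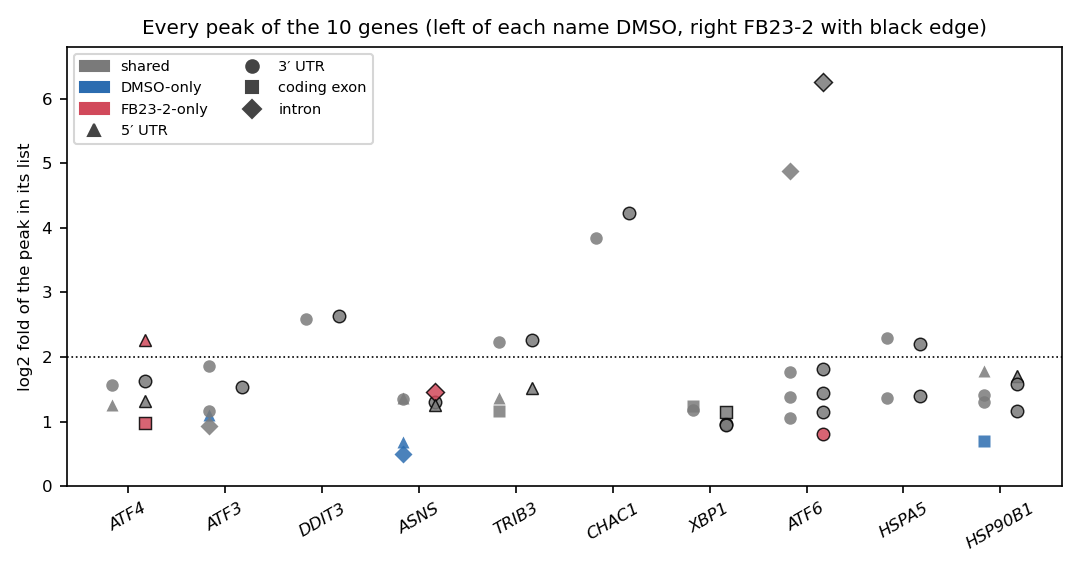
Log2 fold of every peak of the 10 genes in its own list (y), with DMSO peaks to the left of each name and FB23-2 peaks, black-edged, to the right; the marker gives the annotation class, and the dotted line is a log2 fold of 2. CHAC1 and the ATF6 intron peak stand highest in both lists. Of the list-only peaks, only the upstream ATF4 peak (2.27) lies above the line.

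The rest of the pathway was read from a list of 92 further stress response genes, of which 89 had a peak and 87 a peak in both lists. ERN2, ERO1B and FGF21 had none, and CREB3L1 and CREB3L3 had peaks in the DMSO list alone. DMSO-only peaks were 48 of 261 (18.4%) and FB23-2-only peaks 38 of 255 (14.9%), which again lie near the background. The median log2 fold of their peaks was 1.24 in the DMSO list and 1.28 in the FB23-2 list, beside 1.39 and 1.42 for all peaks. Of the 87 genes, 34 had a DMSO-only peak (39.1%) and 27 an FB23-2-only peak (31.0%), beside 32.7% and 29.6% of all genes with peaks in both lists, and in 44 all peaks were shared. An FB23-2-only 5′ UTR peak was found in 8 of the 87 (9.20%), beside 5.84% of all such genes. Among them were PHGDH, the first enzyme of serine synthesis (log2 fold 1.19), SLC3A2, the heavy chain of amino acid exchangers (1.49), and EIF2B2, a subunit of the eIF2 exchange factor (1.24). From the nearest DMSO peak of its gene, the EIF2B2 peak lay 375 bases, that of SLC3A2 2414 and that of PHGDH 8390. From the nearest FB23-2 peak of its gene, the distances were 100, 2064 and 14203 bases. DMSO-only 5′ UTR peaks were found in NFE2L2, UGGT1 and WARS1, the last named outside the rule for named genes. The share of all genes with such a peak was not counted, so the 2 directions cannot be set against their backgrounds.

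The other most significant FB23-2-only peaks were in UGGT1, a glycoprotein folding sensor (3′ UTR, 1.20), SARS1, seryl-tRNA synthetase (coding exon, 1.02), MBTPS1, a protease that cuts ATF6 (intron, 0.999), EDEM1, a factor of ER-associated degradation (3′ UTR, 1.03), and ERO1A, an oxidase of disulfide formation (3′ UTR, 0.93). The most significant DMSO-only ones were in PHGDH (3′ UTR, 1.21), CEBPB, a partner of ATF4 (coding exon, 1.61), and EIF2AK1, the haem-regulated eIF2 kinase (3′ UTR, 0.99). EPRS1 (0.78), AARS1 (1.12), PDIA4 (0.84), SEC63 (0.90) and TNFRSF10B (0.95) followed. Of these 8 DMSO-only peaks, those of CEBPB, EIF2AK1, TNFRSF10B and AARS1 had an FB23-2 peak of the same gene within 225 bases. Of the 8 FB23-2-only ones, that of ERO1A lay closest to a DMSO peak of its gene, at 75 bases. PHGDH had 2 peaks in each list, none of them shared.

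The strongest shared peaks of the wider list had folds much above those of ATF4. NFE2L2, the antioxidant factor NRF2, had a peak labelled 5′ UTR at log2 folds of 4.33 (DMSO) and 4.78 (FB23-2). It spanned 27331 bases in both lists, introns included. ERN1, the sensor IRE1, had 4.34 and 4.29 under a 3′ UTR label, over spans of 31660 and 31435 bases. JDP2, a bZIP repressor, had 4.36 (DMSO) and 4.26 (FB23-2), and DERL2, a factor of ER-associated degradation, 4.17 and 4.28. STC2, a stress-induced secreted protein, had 4.12 (DMSO) and 4.37 (FB23-2), and BBC3, the death effector PUMA, 3.82 and 4.28. The JDP2 peak spanned 38434 bases under DMSO and the STC2 peak 12238 under FB23-2. ALDH1L2, a mitochondrial folate enzyme, had 4.17 (DMSO) and 3.67 (FB23-2) in the 5′ UTR. By function, in groups drawn after these values were seen, the genes of amino acid synthesis, transport and tRNA charging had the highest list-only shares. These were 15 of 56 DMSO peaks (26.8%) and 10 of 51 FB23-2 peaks (19.6%), beside 20.1% and 17.3% of all peaks. The eIF2 kinases and factors had 7 of 47 and 8 of 48, and the IRE1 and degradation genes 7 of 54 in each list.

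**Figure D4:**
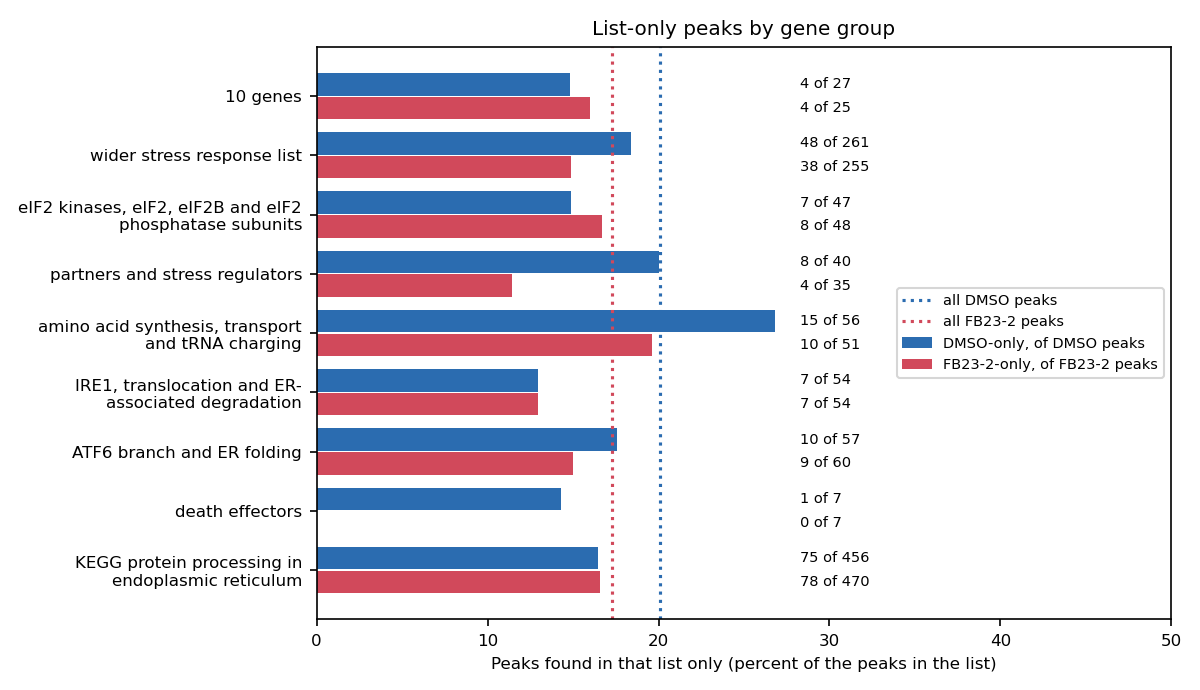
Share of peaks found in 1 list only (x, percent of the group's peaks in that list) for the 10 genes, the wider stress response list, its functional groups and the genes of the deposited KEGG term for protein processing in the endoplasmic reticulum; blue is DMSO-only and red FB23-2-only, with counts at the right. Dotted lines are the shares over all peaks, 20.1% and 17.3%. Both bars of the 10 genes end below the line of their own list, and both bars of the amino acid and tRNA charging genes end above it.

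As a check of the cell type, 4 of 10 liver and liver cancer markers had a peak in both lists (EPCAM, HNF4A, KRT8 and KRT18), while ALB, AFP, APOA1, APOB, TTR and GPC3 had none. All 4 fibroblast markers examined had peaks too, with 1 of 3 leukocyte and 1 of 3 endothelial markers. A peak shows enrichment and not an RNA level, so these counts do not tell how much of each RNA was present.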

How the data were processed

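Poly(A) RNA fragments were sequenced with and without enrichment by an m6A antibody, per the labels' protocols. GRCh38, HISAT2 and Cuffdiff appear in the submitters' processing notes; which peak caller was used, in what version, and whether samples were pooled is not given in the sources used here. Per the file headers, the single peak table that the authors made for each treatment holds for each peak a log2 fold change and p-values, raw and adjusted; what the log2 fold compares is not stated, and it was read as immunoprecipitate over input.

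Deposited starts count from 0 (5661 DMSO peaks start 1 base below their gene's start and 0 at it), so positions are printed 1-based. Sharing used spans, introns included, with overlap of at least 50% of the shorter peak on the same strand, and the step was tested on simulated data. No test between treatments was possible. Percentiles rank peaks by fold within 1 list.

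The members and gene lists were chosen with earlier results of these data known, and the grouping of the 92 further genes by function after their values were seen. Named genes are the 10 members and, per treatment list, the 8 further genes with the most significant list-only peak and the 5 with the highest fold of a shared peak, plus the 3 most like ATF4; others are said to be outside this rule. Alternatives kept only peaks at an adjusted p under 0.001, only those at 4-fold or more, or the 33470 most significant in either list (80% of the shorter), counted any overlap or reciprocal overlap, ignored strand, required the same gene and, added after seeing the data, joined neighbouring peaks. Sequences are RefSeq's, GRCh38.p14, and all 10 genes matched. Software was pandas 2.3.3, numpy 2.4.6, matplotlib 3.10.9 and scipy 1.17.1 in Python 3.11.15.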

Additional observations from a re-analysis of the deposited data

How the results depend on the processing

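No paired analysis was possible because each treatment has a single list without replicate numbers, and leaving out a replicate, a replicate block and a pseudocount were not run for the same reason; nor were exon blocks, which the tables do not give. At a fold of at least 4, with fewer peaks by construction, 0 of 5 DMSO peaks of the 10 genes were DMSO-only. Of their 6 FB23-2 peaks, 1 was FB23-2-only, in ATF4. The further stress response genes had 6 of 61 and 3 of 58. Over all peaks at that fold, 84.8% of DMSO and 83.7% of FB23-2 peaks were shared. With reciprocal overlap, 12 of the 27 DMSO peaks in the 10 genes were DMSO-only, and 10 of their 25 FB23-2 peaks were FB23-2-only. The further genes had 82 of 261 and 76 of 255. A long peak and the pieces of it no longer count as shared under this rule, and sharing fell across both whole lists. It went from 79.9% to 64.4% in the DMSO list and from 82.7% to 65.9% in the FB23-2 list. With equal numbers of top peaks the 10 genes had 2 of each and ATF4 1 FB23-2-only peak. With neighbours joined, a setting chosen after seeing the data, the FB23-2-only peaks were 2 in the 10 genes and 0 in ATF4 within 100 bases, and 1 in ATF4 within 50 bases. The other 39 of these 54 comparisons, among them all at an adjusted p under 0.001, with any overlap, with strand ignored and with the same gene required, stayed within 1.5 times. ATF4 had 0 DMSO-only peaks in every setting run. Depth is unknown, so a peak missing from a list may be a call that fell short there.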

Other observations

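EIF2AK3, which encodes the sensor PERK upstream of ATF4, had 2 or more FB23-2-only and 0 DMSO-only peaks. It was alone in this among the 87 further genes with peaks in both lists, and 3.44% of all such genes had this pattern. The reverse, 2 or more DMSO-only and 0 FB23-2-only peaks, was found in the further genes EIF2B5 (2), CREBRF (3) and ALDH1L2 (2). How common the reverse is over all genes was not counted. EIF2AK3, EIF2B5 and CREBRF are named outside the rule above, after their values were seen. EIF2AK3 had 2 DMSO peaks, both shared, and 5 FB23-2 peaks. Of its 3 FB23-2-only peaks, 1 of 125 bases (log2 fold 0.68) lay 50 bases from a DMSO peak at the gene's 3′ end. The others, at chr2:88591028-88593953 (1.01) and chr2:88594054-88595850 (0.85), lay 100 bases apart and 14376 and 17402 bases from the nearest DMSO peak of the gene. The deposited adjusted p-values of these 3 were 0.00237, 6.08e-06 and 0.00346.

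The deposited KEGG term for protein processing in the endoplasmic reticulum held 151 genes with a peak, 6 of them among the 10 genes and 40 among the further ones. DMSO-only peaks were 75 of 456 (16.4%) and FB23-2-only peaks 78 of 470 (16.6%), beside 20.1% and 17.3% of all peaks. An FB23-2-only 5′ UTR peak was found in 15 of the 149 genes with peaks in both lists (10.1%), beside 5.84% of all such genes. DMSO-only 5′ UTR peaks were not counted for this term.

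The genes most like ATF4, by the log2 folds of the most significant peak in the 2 lists among the 168 other genes with 2 DMSO and 4 FB23-2 peaks, were YBEY (1.51 and 1.59), C1orf112 (1.52 and 1.67) and NAP1L4 (1.57 and 1.55). Their distances from ATF4 on the log2 scale were 0.065, 0.067 and 0.074.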
